A study of Mus musculus with 9 samples.

Results

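The MHC class II presentation genes were followed in mouse (Mus musculus) jejunum as 8 genes chosen by symbol, namely Ciita, Cd74, H2-Aa, H2-Ab1, H2-Eb1, H2-DMa, H2-DMb1 and H2-DMb2. All 8 were among the 21868 protein-coding genes of the count table, and all 8 passed the filter on low counts that 14668 genes passed. Bulk RNA sequencing was done on 3 jejunum libraries from mice given TPN, 3 from starved mice and 3 from sham mice, each from a 5 cm piece of jejunum. Each condition lasted 24 h. TPN stands for total parenteral nutrition, feeding through a vein that leaves the gut lumen without food. The labels name no strain, sex, age, infusion mixture or feeding of the sham mice, and they call the replicates biological without naming an animal for each. The p-values below measure the spread between these samples, which is technical to the extent that libraries shared an animal. The comparisons ask how the jejunum responds to nutrients that arrive only from the blood (TPN against sham), to no nutrients (starvation against sham), and to these conditions set against each other.

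MHC class II molecules are pairs of an alpha and a beta chain on the cell surface that show peptides from endosomes to CD4+ T cells. B cells, dendritic cells and macrophages make them constitutively, and interferon gamma induces them in other cells, the intestinal epithelium among them, through the coactivator Ciita. In the endoplasmic reticulum the chains bind the invariant chain Cd74. In endosomes the H2-DM dimer exchanges the last fragment of Cd74 for peptide, and H2-O, found mainly in B cells, restrains H2-DM. The H2-Eb1 chain pairs with an alpha chain whose gene is annotated as a polymorphic pseudogene in GENCODE release M21 and was not analysed here.

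On GRCm38, with gene bounds from GENCODE release M21, 6 of the members lie in the class II region of chromosome 17. H2-DMa is at chr17:34119541-34139101, H2-DMb2 at chr17:34143307-34151555, H2-DMb1 at chr17:34153072-34160230, H2-Ab1 at chr17:34257689-34269419 and H2-Eb1 at chr17:34305867-34316674, each on the plus strand. H2-Aa is on the minus strand at chr17:34282744-34287823. Ciita is on chromosome 16 (chr16:10480059-10528418, plus strand), and the remaining member lies elsewhere, as given with its level. The exons of Ciita share 329 bases with Dexi on the opposite strand, and those of H2-DMa share 360 bases with Brd2 on the opposite strand. The labels' protocols name no step that marks the strand, so reads from those stretches cannot be assigned to either gene of a pair.

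Class II promoters carry an X box, bound by RFX factors, and a Y box, bound by NF-Y, on which Ciita assembles. Upstream sequence from RefSeq (GRCm38.p6) was matched for H2-Aa, H2-Eb1, H2-DMa, H2-DMb1 and H2-DMb2. The runs below are shown because they hold the stretch where these boxes are sought. Each is 60 bases, 5′ to 3′ on the gene's strand, placed so that 48 bases precede the Y box core and 6 follow it. Capitals mark matches to GATTGG (Y box core), GCAACNG (X box core with 1 free base) or GATGATG (the flank of the X box, which overlaps the X box core by 1 base where both match). H2-Ob and H2-Eb2, which are no members, are shown for their values further down. RefSeq places the start of H2-DMb2 inside the GENCODE bounds given above.
H2-Aa, chr17:34287861-34287920, minus strand: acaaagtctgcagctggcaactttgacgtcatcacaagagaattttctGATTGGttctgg
H2-Eb1, chr17:34305759-34305818, plus strand: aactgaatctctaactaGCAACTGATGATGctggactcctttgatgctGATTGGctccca
H2-DMb2, chr17:34145110-34145169, plus strand: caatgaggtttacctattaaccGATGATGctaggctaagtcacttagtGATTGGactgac
H2-Ob, chr17:34238799-34238858, plus strand: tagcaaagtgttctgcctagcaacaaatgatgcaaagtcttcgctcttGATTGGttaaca
H2-Eb2, chr17:34325526-34325585, plus strand: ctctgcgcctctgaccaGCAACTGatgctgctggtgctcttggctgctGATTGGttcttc

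Each window was placed on a Y box core in the gene's orientation, so its presence in all 5 was set by that choice. On either strand the Y box core was found in the 250 upstream bases of 14.6% of the 32851 mouse promoters of the same table. GCAACNG was found in 10.2% of promoters and its narrower form GCAACAG, which none of these windows held, in 4.46%. GATGATG was chosen after these sequences were seen, and 2.92% of promoters held it on either strand. It stood together with a Y box core in 114 promoters (0.347%), those of H2-Eb1, H2-DMb1 and H2-DMb2 among them. In H2-DMb1 and H2-DMb2 it ended 19 bases before the Y box core, and in H2-Eb1 18 bases before it. The H2-DMb1 window lies in the first exon of a GENCODE transcript and is not printed. For H2-DMa, which has 2 starts in the table, a Y box core was found only before the start farther downstream, 194 to 199 bases ahead of it. A match describes letters and not binding.

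H2-DMb1 and H2-DMb2 are tandem copies of the DM beta chain. Their coding sequences in GENCODE release M21 are 786 bases each, aligned without a gap, and identical at 754 positions (95.9%). Of the 737 stretches of 50 bases in the H2-DMb1 coding sequence, 353 (47.9%) occur letter for letter in H2-DMb2. Of the 687 stretches of 100 bases, 26.1% do. The counts of these genes are therefore uncertain wherever the authors' counting could split or drop shared reads. The 120 coding bases with the most differences, positions 201 to 320 counted from the start codon, are shown because they hold 23 of the bases that tell the copies apart, in capitals.
H2-DMb1: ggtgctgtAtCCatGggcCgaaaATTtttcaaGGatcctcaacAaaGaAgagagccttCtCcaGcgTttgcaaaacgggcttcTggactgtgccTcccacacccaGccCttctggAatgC
H2-DMb2: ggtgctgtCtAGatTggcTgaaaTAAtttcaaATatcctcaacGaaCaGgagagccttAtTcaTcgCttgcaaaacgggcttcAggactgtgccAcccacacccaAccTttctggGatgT

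Total counts ran from 7779877 to 12084278 per library, and 1 read was worth 0.0798 to 0.119 CPM, that is read counts scaled to the TMM-corrected library size. Starvation replicate 3 stood apart from the other libraries. Its villus enterocyte markers, averaged on the log2(CPM + 0.5) scale, were at 12.7, against 10.2 to 12.1 in the other libraries. Its stem cell markers were at 3.49, against 4.88 to 5.65. B cell markers set starvation replicates 1 and 2 apart instead, with 5.20 and 4.79 over 11 genes, against 0.28 to 3.29 in the other 7 libraries. Sham replicate 2 held more smooth muscle transcripts than the other libraries, with 8583 CPM summed over 7 markers, against 404 to 1276 CPM elsewhere. Epithelial markers were plentiful throughout, at 3864 to 8200 CPM summed over 6 genes. In bulk tissue, fewer cells of a type and less RNA per cell cannot be told apart. In simulated counts of this design, 100 genes were altered 2-fold and 100 were altered 4-fold in each comparison. The test found 12 and 95 of them in TPN against sham, 20 and 93 in starvation against sham, and 13 and 94 in TPN against starvation. A missing call at 2-fold therefore carries little weight. The simulated counts had the same dispersion (0.0987) for every gene and group. The spread of the real counts differed between genes and groups, so these rates are not those of any member.

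Per kilobase of merged exon, the level of Cd74 stood far above the others. Cd74 lies on the plus strand at chr18:60803848-60812652. Cd74 averaged 175 ± 13.9 CPM per kb in TPN, 179 ± 85.2 in starvation and 248.5 ± 12.35 in sham (SD, n = 3 each). In sham the chains of the surface molecule followed, with H2-Ab1 at 56.1 ± 4.0, H2-Aa at 52.5 ± 5.72 and H2-Eb1 at 46.5 ± 5.53 CPM per kb, an order in which neighbours lay within their spread of each other. The DM chains were lower, with H2-DMa at 10.4 ± 0.90 and H2-DMb1 at 6.76 ± 1.40 CPM per kb. Ciita, at 3.15 ± 0.86, and H2-DMb2, at 1.30 ± 0.34, were lowest in sham. In starvation H2-DMb2 averaged 7.55 ± 5.99 CPM per kb, beside 7.53 ± 5.07 for H2-DMb1, so that their order could not be read there.

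In TPN against sham most class II genes had lower levels in TPN, with estimates near -0.50 to -0.76 on the log2 scale, but no member passed the test over all genes in the fit of all 9 libraries. In 6 of the 8 members every TPN library was below every sham library, a pattern that 21.4% of all tested genes showed. The 6 were Cd74, H2-Aa, H2-Ab1, H2-Eb1, H2-DMa and H2-DMb1. With edgeR's quasi-likelihood test, 0 members were called, against 8.6% of all genes (3.48% higher and 5.12% lower). At an unadjusted p under 0.05 there were 3 members, all lower (H2-Ab1, H2-Eb1 and H2-DMa), against 15.1% of all genes. DESeq2 called H2-Ab1 and H2-DMa lower (adjusted p = 0.0446 and 0.0455), against 9.02% of all genes. The median log2 fold change of the 8 members was -0.63, against -0.02 over all 14668 genes.

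H2-Ab1, the beta chain of the A molecule, had 81.3, 81.7 and 92.97 CPM in TPN, against 134, 155 and 143 CPM in sham. The highest TPN library was well under the lowest sham library. Its log2 fold change was -0.76 ± 0.26 (± SE; edgeR quasi-likelihood adjusted p = 0.102).

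H2-Eb1, the beta chain of the E molecule, had 53.98, 56.7 and 52.5 CPM in TPN, against 83.2, 103 and 85.1 CPM in sham. The TPN libraries were close together and did not reach the sham range. This gave a log2 fold change of -0.73 ± 0.26 (quasi-likelihood adjusted p = 0.109).

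H2-Aa, the alpha chain of the A molecule, had 118, 130 and 133 CPM in TPN, against 188, 225 and 186 CPM in sham. These groups did not overlap either. Its log2 fold change was -0.65 ± 0.30 (quasi-likelihood adjusted p = 0.196).

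Cd74, the invariant chain, had 268, 312 and 303 CPM in TPN, against 440, 412 and 399 CPM in sham. Its groups did not overlap, and its log2 fold change of -0.50 ± 0.33 was smaller than that of the beta chains (quasi-likelihood adjusted p = 0.353).

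H2-DMa, the DM alpha chain, had 19.6, 25.9 and 25.8 CPM in TPN, against 34.4, 34.03 and 39.6 CPM in sham. TPN replicate 1 was the lowest library of all 9. The log2 fold change was -0.60 ± 0.19, with the smallest adjusted p of the members (quasi-likelihood adjusted p = 0.0853).

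H2-DMb1 had 6.43, 6.91 and 6.89 CPM in TPN, against 10.7, 13.98 and 9.41 CPM in sham, with no overlap. Its log2 fold change was -0.75 ± 0.51 (quasi-likelihood adjusted p = 0.379).

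H2-DMb2 was the only member with a positive estimate, having 2.14, 3.22 and 6.81 CPM in TPN, against 2.94, 2.03 and 1.83 CPM in sham. TPN replicate 1 lay inside the sham range. The log2 fold change was 0.84 ± 0.76 (quasi-likelihood adjusted p = 0.509).

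Ciita, the coactivator, had 17.1, 25.4 and 28.4 CPM in TPN, against 34.2, 20.6 and 35.2 CPM in sham. The groups overlapped through sham replicate 2, and the log2 fold change was -0.35 ± 0.52 (quasi-likelihood adjusted p = 0.703).

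The fit of all 9 libraries shares 1 estimate of spread among the groups, and the starvation libraries were far more spread than the others. H2-Ab1, for instance, had an SD of 6.65 CPM in TPN, 29.3 in starvation and 10.3 in sham. Fitted with only the TPN and sham libraries, 6 members fell in TPN, the same 6 whose groups did not overlap, against 11.5% of all genes called lower (edgeR quasi-likelihood adjusted p from 0.00502 for H2-Ab1 to 0.0472 for H2-DMb1). Fitted without starvation replicate 3, these 6 were lower again, against 11.4% of all genes, with adjusted p from 0.00278 for H2-Ab1 to 0.0347 for H2-DMb1. Their log2 fold changes hardly moved, with H2-Ab1 at -0.73 ± 0.11 and H2-Eb1 at -0.70 ± 0.11. Leaving out any other single library gave 0 calls. B cell markers were not lower in TPN. They summed to 28.3, 60.7 and 124 CPM over 11 genes in TPN, against 30.3, 13.9 and 25.3 CPM in sham. Macrophage markers summed to 533, 583 and 636 CPM over 9 genes in TPN, against 521, 867 and 490 CPM in sham. Villus enterocyte markers were lower in this comparison too. All 6 had negative log2 fold changes, with a median of -1.15, and 2 fell, against 5.12% of all genes called lower. The 2 were the fatty acid binding protein Fabp2 (-2.26 ± 0.46) and the intestinal alkaline phosphatase Alpi (-1.77 ± 0.44; quasi-likelihood adjusted p = 0.0202 and 0.0395). Summed, the 6 were at 30676 to 37826 CPM in TPN, against 39501 to 80627 CPM in sham. Most of these sums came from Apoa4 and Apoa1, which each overlapped between the groups (quasi-likelihood adjusted p = 0.444 and 0.874). In Krt20, Alpi, Fabp2 and Ada every TPN library was below every sham library, as in 21.4% of all genes. All 7 smooth muscle markers also had negative estimates, with a median of -2.61 and 0 called. They summed to 516, 404 and 1150 CPM in TPN, against 1057, 8583 and 1133 CPM in sham, where replicate 2 stood far above the others. Of 4 germinal centre B cell markers, Mef2b and Rgs13 rose in TPN, against 3.48% of all genes called higher. Stem cell markers summed to 537 to 636 CPM over 4 genes in TPN, against 536 to 914 CPM in sham. The part of these cell types in the class II difference was not tested. With sham replicate 2 and starvation replicate 3 both left out, the same 6 members were called lower, against 14.8% of all genes.

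**Figure D1:**
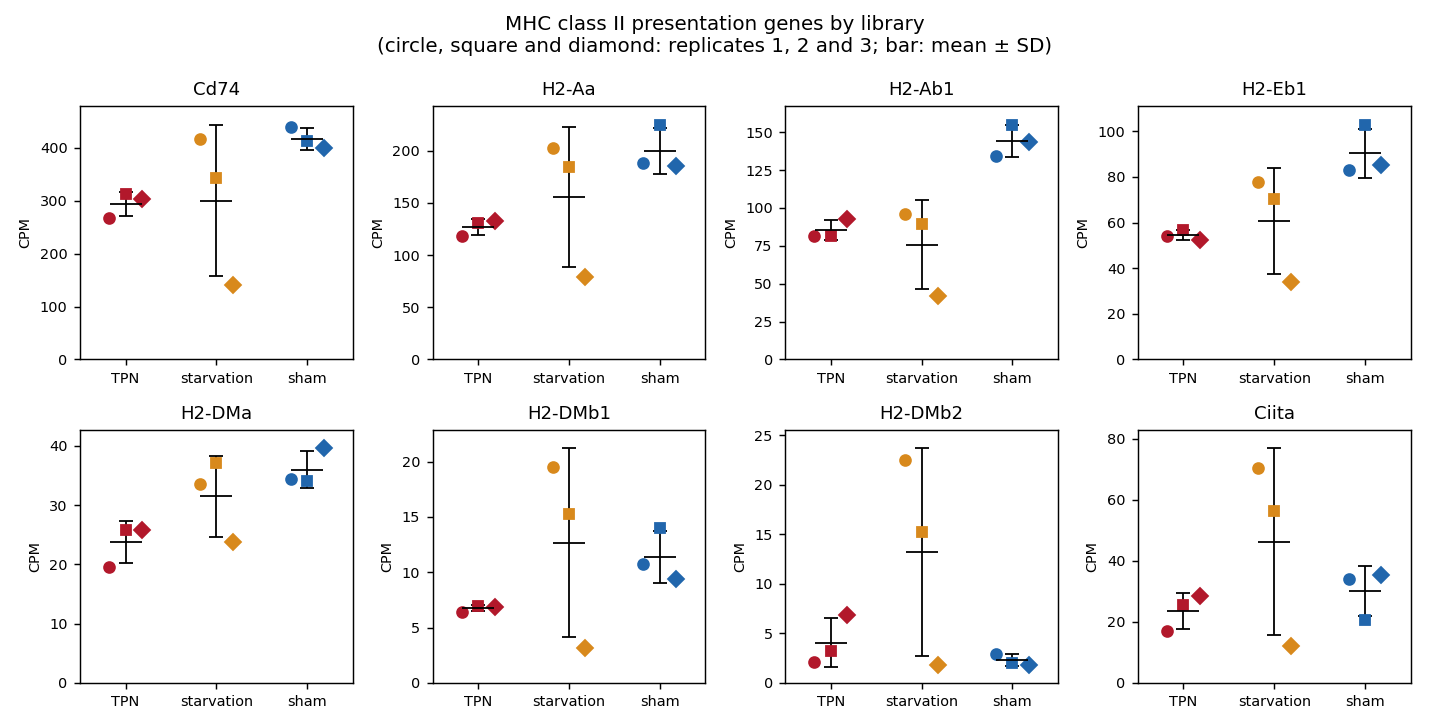
Level of each member in CPM (vertical axes, linear from 0) in the 3 TPN, 3 starvation and 3 sham libraries. Points are libraries and bars the mean ± SD. In Cd74, H2-Aa, H2-Ab1, H2-Eb1, H2-DMa and H2-DMb1 all TPN points lie under all sham points, and starvation replicate 3 (diamond) lies far under the other starvation points in all members but H2-DMa, where the gap is smaller.

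In starvation against sham, the starvation libraries did not behave as 1 group. Replicates 1 and 2 were high in Ciita, H2-DMb1 and H2-DMb2 and near the sham level in Cd74, H2-Aa and H2-DMa, while replicate 3 was the lowest starvation library in all 8 members. With edgeR's quasi-likelihood test 0 members were called, against 3.69% of all genes (2.55% higher and 1.14% lower). At an unadjusted p under 0.05 there were 2 members, H2-DMb2 higher, against 13.0% of all genes, and H2-Ab1 lower, against 10.4%. DESeq2 called the same 2 in the same directions, against 5.81% of all genes higher and 3.78% lower. H2-Ab1 and H2-Eb1 were below sham in every starvation library, as 11.2% of all genes were. The members' median log2 fold change was -0.28, against -0.01 over all genes.

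H2-Ab1 had 95.8, 89.3 and 42.1 CPM in starvation, against 134, 155 and 143 CPM in sham. No other member was as far below its sham mean in replicates 1 and 2. Its log2 fold change was -0.93 ± 0.26 (quasi-likelihood adjusted p = 0.0838, DESeq2 adjusted p = 0.0134).

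H2-Eb1 had 77.6, 70.2 and 34.02 CPM in starvation, against 83.2, 103 and 85.1 CPM in sham. Replicates 1 and 2 were just under the sham range. The estimate was a log2 fold change of -0.57 ± 0.26 (quasi-likelihood adjusted p = 0.218).

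H2-Aa had 203, 184 and 78.8 CPM in starvation, against 188, 225 and 186 CPM in sham, so that replicates 1 and 2 stood at the sham level. Cd74 had 417, 343 and 141 CPM in starvation, against 440, 412 and 399 CPM in sham. Replicate 1 of Cd74 was inside the sham range and replicates 2 and 3 below it. H2-DMa, with 33.6, 37.05 and 23.8 CPM in starvation and 34.4, 34.03 and 39.6 CPM in sham, was the member that varied least. The log2 fold changes were -0.36 ± 0.30 for H2-Aa, -0.47 ± 0.33 for Cd74 and -0.19 ± 0.19 for H2-DMa (quasi-likelihood adjusted p = 0.408 to 0.581).

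H2-DMb2 had 22.5, 15.2 and 1.85 CPM in starvation, against 2.94, 2.03 and 1.83 CPM in sham. Replicates 1 and 2 were several times above every sham library and replicate 3 was among them. The log2 fold change was 2.54 ± 0.77 (quasi-likelihood adjusted p = 0.0965, DESeq2 adjusted p = 0.00868).

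Ciita had 70.5, 56.3 and 11.9 CPM in starvation, against 34.2, 20.6 and 35.2 CPM in sham, its replicates 1 and 2 above sham and its replicate 3 below. H2-DMb1 showed the same split, with 19.5, 15.3 and 3.12 CPM in starvation, against 10.7, 13.98 and 9.41 CPM in sham. The log2 fold changes were 0.63 ± 0.52 for Ciita and 0.16 ± 0.51 for H2-DMb1 (quasi-likelihood adjusted p = 0.494 and 0.877).

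Without starvation replicate 3, Ciita (1.05 ± 0.28) and H2-DMb2 (3.03 ± 0.47) were called higher in starvation, against 6.32% of all genes. H2-Ab1 (-0.66 ± 0.12) was called lower, against 5.31% of all genes (edgeR quasi-likelihood adjusted p = 0.00945 to 0.0463). With sham replicate 2 left out as well, H2-DMb1 was also higher (0.80 ± 0.18), so that 3 members were higher, against 10.9% of all genes, and H2-Ab1 lower, against 9.0%. These values rest on 2 starvation libraries.

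**Figure D2:**
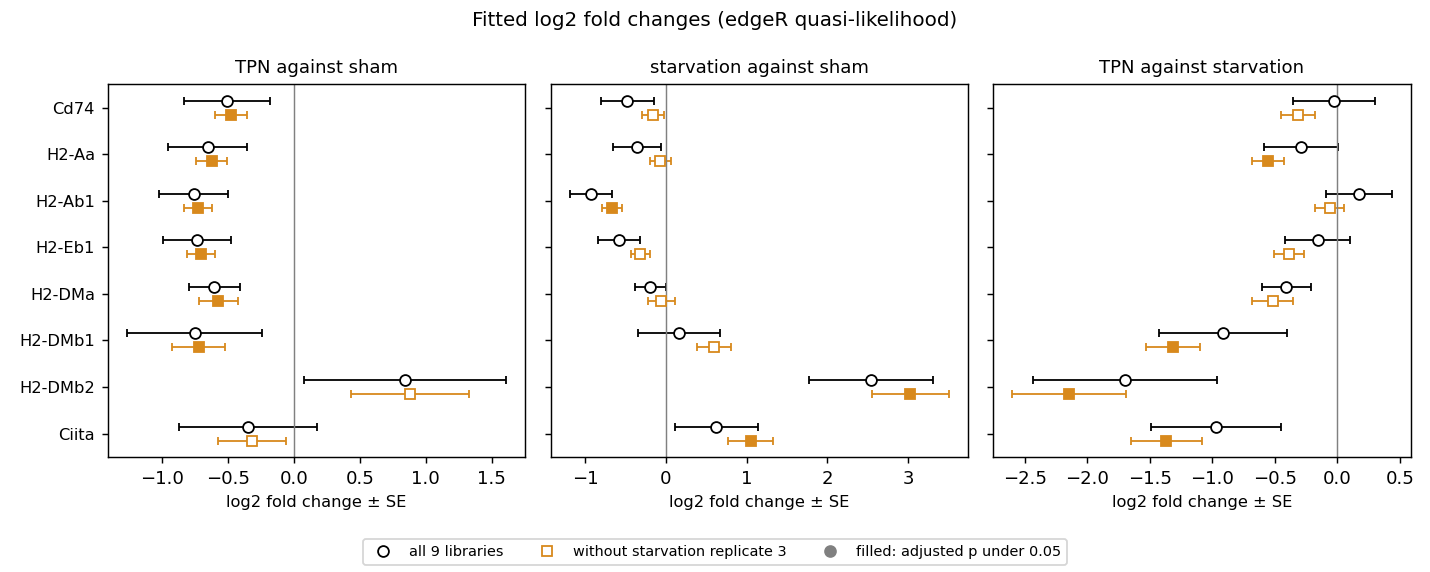
Fitted log2 fold change ± SE (horizontal axes) of each member in the 3 comparisons, for the fit of all 9 libraries (circles) and for the fit without starvation replicate 3 (squares); filled symbols have an adjusted p under 0.05. No circle is filled, while 6 squares are filled in TPN against sham, 3 in starvation against sham and 4 in TPN against starvation.

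In TPN against starvation all 8 members overlapped between the groups, and edgeR's quasi-likelihood test called 0 members, against 5.84% of all genes (1.94% higher and 3.9% lower). Of all genes, 18.3% had every TPN library below every starvation library. At an unadjusted p under 0.05 there was 1 member, H2-DMb2, lower, against 14.3% of all genes. DESeq2 called 0 members, against 4.43% of all genes higher and 7.02% lower. The estimates were lowest for H2-DMb2 at -1.70 ± 0.73, Ciita at -0.97 ± 0.52 and H2-DMb1 at -0.92 ± 0.51 (quasi-likelihood adjusted p = 0.205 to 0.327). For Cd74 the estimate was -0.03 ± 0.33 and for H2-Ab1 0.17 ± 0.26 (quasi-likelihood adjusted p = 0.971 and 0.746). Without starvation replicate 3, Ciita (-1.37 ± 0.28), H2-Aa (-0.55 ± 0.13), H2-DMb1 (-1.32 ± 0.22) and H2-DMb2 (-2.14 ± 0.45) were lower in TPN, against 3.97% of all genes called lower (quasi-likelihood adjusted p = 0.0112 to 0.0377). With sham replicate 2 left out as well, H2-Eb1 and H2-DMa joined them, 6 members lower against 11.5% of all genes. Both of these fits rest on starvation replicates 1 and 2 alone. In the fit of all 9 libraries Alpi and Fabp2 were lower in TPN than in starvation too, and all 6 villus enterocyte markers had negative estimates, with a median of -1.36. The M cell marker Tnfaip2 was higher in TPN than in starvation, 1 of 4 M cell markers called, against 1.94% of all genes called higher. The estimates of Spib (-1.11 ± 0.67) and Ccl20 (-1.08 ± 0.60) were negative. That of Gp2 was positive through TPN replicate 2, at 452 CPM. The part of these cell types was not tested. Both comparisons against sham used the same 3 sham libraries, and each pair of comparisons shares a group.

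Like H2-DMb2, 3 further class II genes were high in starvation replicates 1 and 2 and low in replicate 3. H2-Ob, the beta chain of the DM inhibitor H2-O, had 2.23, 8.94 and 14.7 CPM in TPN, 63.5, 44.6 and 2.20 CPM in starvation, and 3.14, 3.09 and 2.00 CPM in sham. H2-Oa, its alpha chain, had 1.98, 2.86 and 3.52 CPM in TPN, 17.6, 13.6 and 1.62 CPM in starvation, and 2.75, 2.99 and 2.83 CPM in sham. H2-Eb2, a further class II beta chain gene, had 1.81, 4.89 and 6.01 CPM in TPN, 24.9 and 19.2 CPM in starvation replicates 1 and 2, no read in starvation replicate 3, and 1.96, 1.39 and 1.17 CPM in sham. None of these 3 passed in any of the comparisons (edgeR quasi-likelihood adjusted p = 0.0767 to 0.980).

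B cell markers moved with these genes. Summed over 11 markers they were at 28.3 to 124 CPM in TPN, 454, 336 and 13.1 CPM in starvation, and 13.9 to 30.3 CPM in sham. Of the 11, 1 passed, Cd37, higher in starvation than in sham, against 2.55% of all genes called higher, and 0 passed in TPN against sham or TPN against starvation. In starvation replicate 3, 4 of the 11 markers had no read, as did 4 in sham replicate 2. The defining marker Pax5 was at 0 in both, and also in TPN replicate 1 and sham replicate 3. Across the 9 libraries the log2 level of H2-DMb2 ran with the mean of the B cell markers (Pearson r = 0.98). It ran less closely with the means of the germinal centre B cell markers (0.92), dendritic cell markers (0.85) and T cell markers (0.83). Ciita correlated at 0.88 with the dendritic cell markers and at 0.81 with the B cell markers, and H2-DMb1 at 0.67 and 0.56. For H2-Ab1 the correlation with the B cell markers was -0.05 and for H2-Eb1 0.09. Cd74 and H2-Ab1 ran with the 4 stem cell markers instead (0.93 and 0.85). With the macrophage markers the correlations were 0.68 for H2-Ab1, 0.59 for H2-Eb1, 0.54 for Cd74 and 0.51 for H2-Aa. They were 0.34 for H2-DMb1, 0.14 for H2-DMa, -0.05 for Ciita and -0.21 for H2-DMb2. These correlations are a description over 9 libraries that share their scaling. Starvation replicate 3, low in the members and in B cell, dendritic cell, macrophage and stem cell markers, weighs on them. Dendritic cell markers ranged from 42.7 to 52.2 CPM in TPN, 27.4 to 71.4 CPM in starvation and 30.2 to 49.0 CPM in sham, summed over 9 genes. These 9 did not move together, as 5 had negative log2 fold changes in starvation against sham, with a range of -1.63 to 4.16. Macrophage markers summed to 569, 525 and 333 CPM over 9 genes in starvation, against 521, 867 and 490 CPM in sham. All 9 had negative log2 fold changes, with a median of -0.57, and 0 were called, against 1.14% of all genes called lower. The part of B cell, dendritic cell and macrophage content in the starvation results was not tested.

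**Figure D3:**
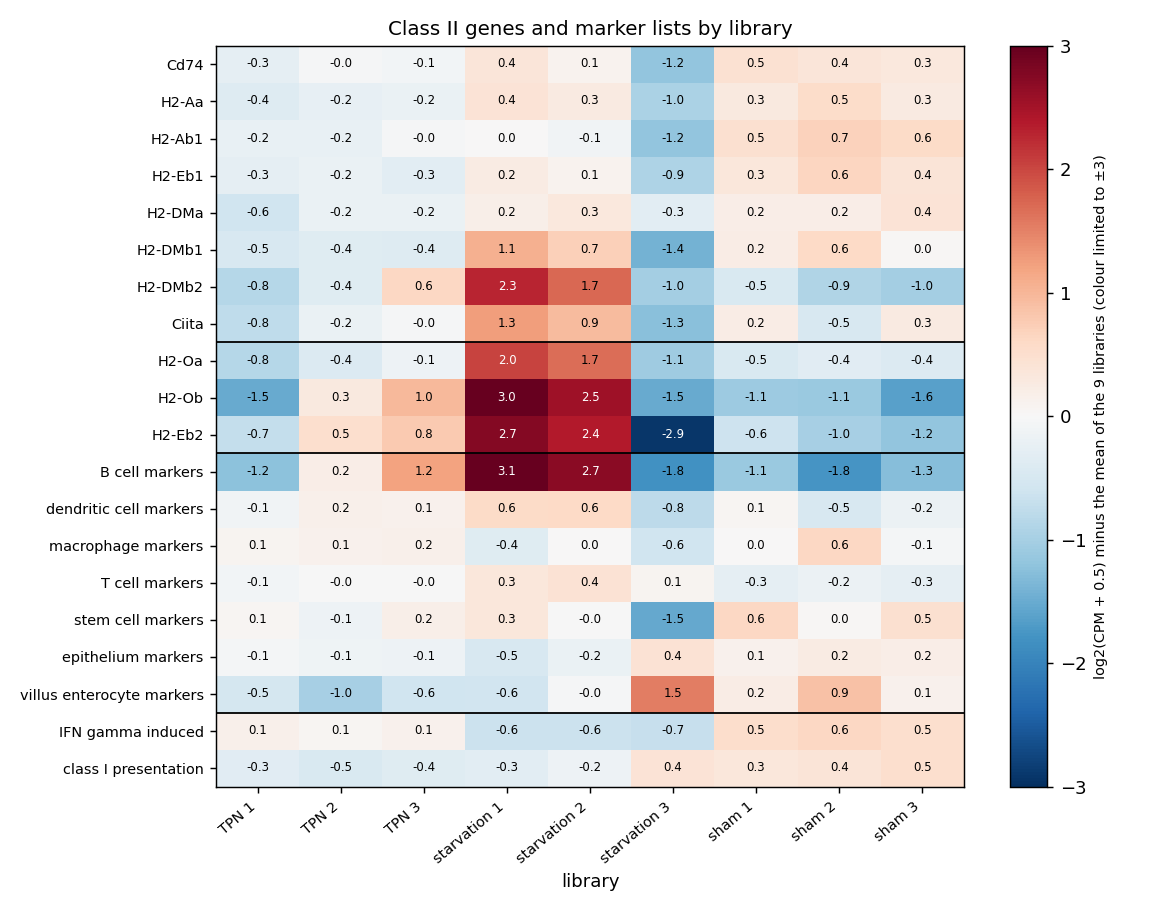
Difference of each library from the mean of the 9 libraries, in log2(CPM + 0.5), for the 8 members, 3 further class II genes, the means of 7 marker lists and of the interferon gamma induced and class I lists. Starvation replicates 1 and 2 are high in H2-DMb2, H2-Oa, H2-Ob, H2-Eb2 and B cell markers, while starvation replicate 3 is low in all 8 members and in stem cell markers and high in villus enterocyte markers.

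Ratios between members within a library do not depend on how libraries are scaled. The ratio of H2-Aa to H2-Ab1 reads was 1.45, 1.60 and 1.43 in TPN, 2.12, 2.06 and 1.87 in starvation, and 1.40, 1.45 and 1.29 in sham. Every starvation library, replicate 3 included, was above every TPN and sham library. The ratio of H2-Eb1 to H2-Ab1 reads showed the same order, with 0.66, 0.69 and 0.56 in TPN, 0.81, 0.79 and 0.81 in starvation, and 0.62, 0.66 and 0.59 in sham. The means in starvation and sham were 2.02 ± 0.13 and 1.38 ± 0.08 for the first ratio, and 0.801 ± 0.01 and 0.626 ± 0.04 for the second (SD, n = 3 each; two-sided exact permutation p = 0.10 for both, the smallest that 3 against 3 allows). A total of 15 ratio comparisons were made, and the adjusted value for these was 0.25. These ratios were chosen after the counts were seen, and a ratio shows unequal change and not which gene changed.

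The share of H2-DMb2 among the reads of both DM beta genes was 25.0%, 31.8% and 49.7% in TPN, 53.5%, 49.8% and 37.2% in starvation, and 21.6%, 12.7% and 16.3% in sham. All TPN and all starvation libraries were above all sham libraries (two-sided exact permutation p = 0.10 for each, adjusted value 0.25). The fewest reads behind a share were in starvation replicate 3, with 16 of 43 and an exact 95% binomial interval of 23.0% to 53.3%. In sham replicate 1, the highest sham library, the interval was 15.06% to 29.35% and in TPN replicate 1 it was 17.03% to 34.45%, so those did not differ beyond counting error. The ratio of Ciita to Cd74 reads was 0.0638, 0.0814 and 0.0939 in TPN, 0.169, 0.164 and 0.0848 in starvation, and 0.0776, 0.0499 and 0.0882 in sham, with starvation replicates 1 and 2 above the other 7 libraries. The ratio of Cd74 to the summed reads of H2-Aa, H2-Ab1 and H2-Eb1 was steadier, at 1.10 ± 0.05 in TPN, 1.005 ± 0.10 in starvation and 0.968 ± 0.11 in sham.

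**Figure D4:**
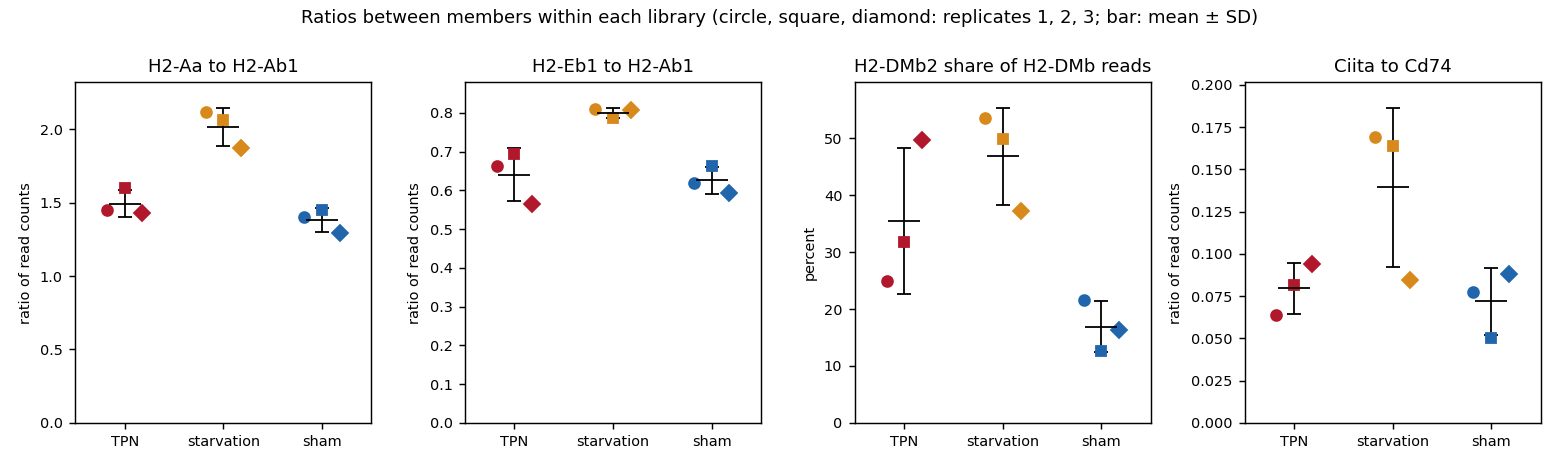
Ratios of read counts between members (the 3 panels with a ratio axis) and the percent of DM beta reads that were H2-DMb2 (the panel with an axis in percent), by group, with libraries as points and bars at the mean ± SD. The H2-Aa to H2-Ab1 and H2-Eb1 to H2-Ab1 ratios of all starvation libraries lie above those of all TPN and sham libraries.

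The factors that bind class II promoters did not pass in any comparison. Of 7 listed (Rfx5, Rfxap, Rfxank, Nfya, Nfyb, Nfyc and Creb1), 0 were called in the 3 comparisons by edgeR. Rfx5, the DNA-binding RFX subunit, had 12.4, 16.0 and 14.5 CPM in TPN, 19.0, 20.5 and 8.79 CPM in starvation, and 21.8, 17.2 and 19.7 CPM in sham. All TPN libraries were below all sham libraries, with a log2 fold change of -0.46 ± 0.29 (quasi-likelihood adjusted p = 0.348).

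Genes of interferon gamma signalling, the inducer of Ciita outside professional presenting cells, fell in TPN for 2 of 8 tested and in starvation for 0 of 8, with 0 called higher in either. Against that stand 5.12% of all genes called lower in TPN and 1.14% in starvation. In TPN the 2 were Irf8, a transcription factor of myeloid and B cells (-0.85 ± 0.18), and Socs1, a feedback inhibitor of interferon signalling (-1.34 ± 0.33; quasi-likelihood adjusted p = 0.0228 and 0.0381). Irf1, a transcription factor induced by interferon gamma, had 155, 137 and 148 CPM in TPN, 134, 128 and 264 CPM in starvation, and 223, 209 and 215 CPM in sham. Irf1 was below sham in every TPN library and did not pass (quasi-likelihood adjusted p = 0.205 to 0.599 over the 3 comparisons). Ifng itself did not pass the filter, at 0.08, 0 and 0 CPM in TPN, 0.16, 0.21 and 0.23 CPM in starvation, and 0.29, 0.32 and 0.25 CPM in sham, which is a few reads per library at most.

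Of the genes that interferon gamma induces, 6 of 15 tested were called lower in TPN and 9 of 15 in starvation against sham, with 0 higher. Of all genes, 5.12% were called lower in TPN and 1.14% in starvation. Estimates were negative for 11 of the 15 in TPN and for all 15 in starvation. The others were positive in TPN, the largest for Gbp5 (0.85 ± 0.28, quasi-likelihood adjusted p = 0.0896). The list's median log2 fold change was -0.43 in TPN and -1.29 in starvation, against -0.02 and -0.01 over all genes. In TPN the 6 were the GTPases Gbp3, Gbp7, Igtp, Irgm1, Irgm2 and Ifi47. In starvation they were joined by Gbp6, Iigp1 and the chemokine Cxcl9. In TPN against starvation 3 of 15 were higher and 0 lower, against 1.94% of all genes called higher, namely Gbp5 (1.71 ± 0.29), Gbp6 (1.91 ± 0.26) and Cxcl9 (1.16 ± 0.22; quasi-likelihood adjusted p = 0.00587 to 0.0175). Cxcl9 had 20.9, 17.52 and 15.46 CPM in TPN, 9.33, 8.23 and 6.48 CPM in starvation, and 25.7, 19.7 and 27.2 CPM in sham. Starvation replicate 3 did not stand apart in Cxcl9 as it did in the class II genes.

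Among 11 genes of class I presentation, 5 fell in TPN and 0 rose, against 5.12% of all genes called lower and 3.48% higher. They were the peptide transporter subunits Tap1 (-1.18 ± 0.15) and Tap2 (-0.86 ± 0.21) and the immunoproteasome subunits Psmb8 (-1.57 ± 0.24), Psmb9 (-1.20 ± 0.21) and Psmb10 (-1.30 ± 0.23; quasi-likelihood adjusted p = 0.00313 to 0.0388). In starvation against sham 0 of 11 were called, and in TPN against starvation Tap1 was lower (-0.75 ± 0.15, quasi-likelihood adjusted p = 0.0199). The class I heavy chain H2-K1 had 1590, 1423 and 1542 CPM in TPN, 1277, 1698 and 4037 CPM in starvation, and 2402, 3478 and 2722 CPM in sham, and did not pass. Unlike the class II genes, H2-K1 was highest in starvation replicate 3, where villus enterocyte markers were highest as well. In TPN against sham 2 of 6 of those markers fell, as given above, and their part in the class I values was not tested. B2m, the class I light chain, was likewise highest among the starvation libraries in replicate 3, with 448, 673 and 1016 CPM in starvation, beside 659, 566 and 713 CPM in TPN and 882, 1178 and 890 CPM in sham. Nlrc5, the class I counterpart of Ciita, did not pass, with log2 fold changes of 0.14 ± 0.22 in TPN and 0.24 ± 0.22 in starvation against sham (quasi-likelihood adjusted p = 0.721 and 0.533).

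Of 8 endosomal processing genes listed, Ifi30 was not analysed here, and 0 of the other 7 were called in any comparison by edgeR. Of 5 costimulatory genes, 1 was called, higher in starvation than in sham, against 2.55% of all genes. Icosl, a ligand of the T cell receptor Icos, had 32.8, 30.2 and 28.6 CPM in TPN, 47.2, 40.005 and 24.6 CPM in starvation, and 20.02, 18.1 and 18.6 CPM in sham. Every library of both conditions was above every sham library. Icosl rose in starvation by 0.98 ± 0.22 on the log2 scale (quasi-likelihood adjusted p = 0.0446).

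The genes whose levels ran most like the members over the 9 libraries were sought among all well-expressed genes. Likeness was Pearson's r between a gene's log2 CPM and the mean centred log2 CPM of the 8 members, among 10283 genes with a mean log2 CPM of at least 3. H2-Oa, H2-Ob and H2-Eb2 were under that level and were not candidates. The 10 highest were Ecsit (r = 0.97), Psat1, Slc25a17, Thap12, Rgs12, Tgif2, Kcnab2, Rasgrp3, Hdgfl2 and Unc93b1 (0.93). All 10 were lowest in starvation replicate 3, as the mean of the members was. Ecsit had 10.05, 10.01 and 10.25 CPM in TPN, 15.6, 13.0 and 6.71 CPM in starvation, and 11.8, 12.9 and 12.7 CPM in sham. Between pairs of members the correlations were wide apart. H2-Aa and H2-Eb1 correlated at r = 0.97 and H2-Aa and Cd74 at 0.95, whereas H2-DMb2 and H2-Ab1 were at -0.03 and Ciita and H2-Ab1 at 0.43.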

How the data were processed

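The authors deposited raw counts per protein-coding gene symbol, whole numbers with a different total per library. Per the submitters' processing notes, reads passed through cutadapt 2.9 and STAR 2.7.2e (builds named as GRCm38 and mm10) and were counted with featureCounts 2.0.0. The notes also list FastQC 0.11.8 and DESeq2 1.32.0. Annotation release, strand setting and the treatment of multi-mapped reads are not given in the sources used. Per the labels' protocols, poly(A) RNA was captured on oligo(dT) beads. Another 9 count columns carry names of no labelled sample and were left out.

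The 9 libraries were fitted together with edgeR 4.0.16 in R 4.3.3 (filterByExpr, TMM, quasi-likelihood test, contrasts of group means, 6 residual degrees of freedom), with Benjamini-Hochberg adjustment over 14668 genes and a threshold of 0.05. The SE is the log2 fold change over the square root of F. CPM is TMM scaled. Intervals cover counting error only. No pair of replicates agreed within sampling noise (chi-square per gene 8.02 to 125). Alternatives were DESeq2 1.42.0, other scalings and filters, fits of only the groups compared, a replicate block, a stricter threshold and libraries left out. The fit was tested on simulated data.

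The members and gene lists were chosen with earlier results of these data known. All 8 members are named. From the pathway lists, genes past the threshold are named, together with Ifng, Irf1, Rfx5, H2-Oa, H2-Ob, H2-Eb2, B2m, H2-K1 and Nlrc5 whatever their values, and the 10 genes most like the members. Some listed genes are not reported here.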

Additional observations from a re-analysis of the deposited data

How the results depend on the processing

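In the fit of all 9 libraries 0 members were called in any comparison. The count stayed at 0 with RLE, upper-quartile or no scaling factors, without or with a stricter filter, and with the replicate block. An adjusted p under 0.01 was applied to the same fit and could give no other count. DESeq2 called 2 lower in TPN against sham, and 1 higher and 1 lower in starvation against sham. Fits of only the groups compared called 6 lower in TPN against sham. With sham replicate 2 and starvation replicate 3 both left out, 6 were lower in TPN against sham, 3 higher and 1 lower in starvation against sham, and 6 lower in TPN against starvation. With 1 library left out, the counts ran from 0 to 6 lower in TPN against sham, 0 to 2 higher and 0 to 1 lower in starvation against sham, and 0 to 4 lower in TPN against starvation, and only the fit without starvation replicate 3 gave any.

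No log2 fold change of a member in TPN against sham reversed under the 19 alternatives. The stricter threshold among them reuses the main fit and could not reverse any. In starvation against sham, H2-Aa reversed to 0.053 with sham replicate 2 and starvation replicate 3 both left out. H2-DMb1 reversed to -0.0010 with the replicate block and ran from -0.29 to 0.60 with 1 library left out. In TPN against starvation, Cd74 was 0.032 with library totals only, 0.030 with upper-quartile factors, 0.060 with the replicate block and 0.016 with only the groups compared, and ran from -0.31 to 0.28 with 1 library left out. There H2-Ab1 was -0.078 with both libraries left out and ran from -0.062 to 0.37, and H2-Eb1 from -0.39 to 0.060. The cause was not tested.

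Scaling by library totals moved the median log2 fold change of all genes to 0.17 in TPN against sham, against -0.02 with TMM, and to 0.11 in TPN against starvation, against -0.03. It called 651 genes higher and 573 lower in TPN against sham, against 510 and 751 with TMM, and 353 in all in starvation against sham. No pairing by replicate number was seen: same-numbered libraries correlated at -0.30 to 0.37 in their deviations from group means, over 0.1 in 2 of 9 pairs. Differently numbered libraries of different groups correlated at -0.59 to 0.48. Deviations from means of 3 libraries are tied to each other, so this cannot show that the samples were unpaired. Genes called in TPN against sham numbered 1261, and 2309 with DESeq2, 2774 in fits of the groups compared alone, 556 with the replicate block, 258 at 0.01, 4425 with both libraries left out and 216 to 3182 with 1 left out. In starvation against sham they numbered 541, and 1525, 2, 71, 30, 2949 and 32 to 1739, and in TPN against starvation 857, and 1701, 545, 386, 144, 3205 and 124 to 1248.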
